A study of Mus musculus with 68 samples.

Results

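The TIP60 complex is a chromatin machine that combines the histone acetyltransferase KAT5 (also called TIP60) with the ATPase EP400. KAT5 adds acetyl groups to histones H4 and H2A, EP400 drives the exchange of H2A for the variant H2A.Z, and sequence-specific activators such as MYC bring the complex to promoters through the scaffold protein TRRAP. In preimplantation embryos, subunits of the complex are known for being needed for growth of the blastocyst and for the self-renewal of pluripotent cells. The genes examined here were 10 subunits, taken by their symbols: Kat5, Ep400, Trrap, Ing3, Brd8, Dmap1, Epc1, Epc2, Meaf6 and Morf4l1. They were 10 of the 24421 reference genes in every deposited table, and each of the 10 was present in all 68 libraries.

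The RNA was from mouse. CCs are the cumulus cells that surround the oocyte, and their nuclei were the donors for SCNT (somatic cell nuclear transfer) into enucleated MII oocytes of BDF1 mice, which were activated with strontium chloride and cytochalasin B. There were 3 libraries of CCs and 53 of SCNT embryos, with 5 at the 4-cell stage (4C) and 6 in each of 8 other groups. Those were embryos 6 and 14 h post-activation (6 hpa and 14 hpa), the early and late 2-cell stage (E2C and L2C), the 8-cell stage (8C), the morula, and both lineages of the SCNT blastocyst, the ICM (inner cell mass) and the TE (trophectoderm). A second experiment had 12 libraries of the ICM and TE of naturally fertilized blastocysts. Their zygotes were injected with a morpholino oligonucleotide (MO) that blocks Max or Mcrs1, and each of the 6 groups had 2 libraries. The 4 control libraries are labelled as control and untreated, while the protocol in the labels and the study's text describe the controls as injected with a random control MO. For the sequenced ICM and TE the study gives a lower concentration of Max MO and of Mcrs1 MO than of control MO. Dose and target thus cannot be told apart in these comparisons. MAX is the dimerization partner of MYC, and MCRS1 is a nuclear protein of the INO80 and NSL chromatin complexes. All libraries were made by Smart-seq2 from 10 blastomeres per reaction according to the labels. These do not say which embryos or animals the libraries came from. The p-values below thus rest on the spread between libraries within groups, which may be technical. That spread was pooled over all groups of a fit and is not that of the compared groups alone. A lower level can be fewer cells of a type or less of that RNA in each cell, and bulk libraries cannot tell the 2 apart.

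Sequencing depth, as aligned gigabases derived from coverage and FPKM, lay between 1.00 and 5.17 with a median of 3.05. Between 6177 and 11771 genes reached a level of 1 TPM (transcript abundance scaled to a fixed library total) in an SCNT library. SCNT ICM replicates 1 to 3 stood apart, with 6177 to 6771 genes at 1 TPM or more, while replicates 4 to 6 had 9011 to 10032. Results on the SCNT ICM are therefore also given from ICM replicates 4 to 6 alone, set against all libraries of the other group. That leaves the replicate numbers unbalanced between the compared groups. It matters most against the SCNT TE, where gene numbers also differed between the early and late replicates, by less than in the ICM. SCNT TE replicates 1 to 3 had 8401 to 8728 genes at 1 TPM or more, and replicates 4 to 6 had 9284 to 9812. In the morula these ranges overlapped, with 9241 to 10509 in replicates 1 to 3 and 9165 to 9617 in replicates 4 to 6. All 8 TE markers had a mean of at least 1 TPM in the SCNT TE, where their summed TPM was 6161 to 17280, and 6 of 7 ICM markers did in the SCNT ICM, where their sum was 211 to 764. The SCNT ICM also held TE markers, at a sum of 2196 to 8845. The first control ICM library of the second experiment held a TE-marker sum of 17188, within the 16317 to 22074 of the 6 TE libraries of that experiment, while the other control ICM library held 645. The Max MO ICM libraries held 2927 and 6276, and the Mcrs1 MO ICM libraries 12419.5 and 8783. ICM-marker sums in the ICM were 1424 and 1906 in controls, 1050 and 1166 after Max MO and 408 and 985 after Mcrs1 MO. In the TE they were 205 and 323 in controls, 160 and 225 after Max MO and 429 and 560 after Mcrs1 MO.

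Levels below are TPM, which is scaled by transcript length. Levels set side by side between genes are descriptions only, since an effect of length that remains was not tested between genes. Differences are log2 fold changes with their standard error (SE) on the log2(TPM + 1) scale, which understates the change of low genes. They came from limma fits across all genes with Benjamini-Hochberg adjustment. A gene is said to rise or fall only past the threshold, where the adjusted p was under 0.05 and the difference at least 2-fold. All 10 members passed the filter on low values in each fit.

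Since MAX binds the E-box CACGTG, the 250 bases before each RefSeq start site of the members were searched for it. The motif reads the same on both strands, and no other motif was searched. Of the 10 members, 8 had an entry in the RefSeq table (build GRCm38.p6), with 10 start sites in all. Brd8 and Epc1 were not among them. The E-box stood in 1 of the 10 windows, the upstream window of Kat5 at chr19:5610095-5610344 on the minus strand, 186 bases before the start. Of all 32851 windows in the table, 6.02% held it. Ep400 and Ing3 were the pair of members with the lowest log2 fold changes in the ICM after Max MO. The 3 sequences below are examples: Kat5 with the E-box, and Ep400 and Ing3, picked by those fold changes, without it. With the motif in 1 window only, motif and response to Max MO cannot be related here. Each is written 5′ to 3′ on the strand of its gene, with the E-box in capitals. The part of the Kat5 window shown is chr19:5610238-5610344, Ep400 is chr5:110770718-110770967 on the minus strand and Ing3 is chr6:21949321-21949570 on the plus strand.
Kat5: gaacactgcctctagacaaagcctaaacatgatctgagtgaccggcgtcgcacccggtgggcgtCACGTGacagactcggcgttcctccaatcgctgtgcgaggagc
Ep400: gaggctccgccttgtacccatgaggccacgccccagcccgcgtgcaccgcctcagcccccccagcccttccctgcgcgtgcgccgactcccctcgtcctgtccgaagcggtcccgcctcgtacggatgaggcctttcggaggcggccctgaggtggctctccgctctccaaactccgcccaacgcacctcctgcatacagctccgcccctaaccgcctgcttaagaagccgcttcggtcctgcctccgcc
Ing3: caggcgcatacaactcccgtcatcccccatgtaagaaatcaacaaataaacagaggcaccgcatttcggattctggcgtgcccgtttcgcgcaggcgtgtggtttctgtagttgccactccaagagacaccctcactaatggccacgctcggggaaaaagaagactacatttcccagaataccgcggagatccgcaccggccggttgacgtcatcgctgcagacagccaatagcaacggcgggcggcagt
The GC content of these windows was 55.2% for Kat5, 70.0% for Ep400 and 56.0% for Ing3, while the median of all windows was 52.4%. A match is a run of letters and not a bound site, and its absence from the other windows says nothing of MAX there.

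From CCs to 6 hpa the members split in 2 directions. Ing3, Epc1 and Ep400 rose, and Dmap1, Meaf6, Morf4l1, Trrap and Kat5 fell, while Brd8 and Epc2 did not pass the test. So 8 of 10 members were past the threshold, 3 higher and 5 lower, and in all 8 the 2 groups did not overlap. The groups did not overlap in 70.4% of all 12084 genes tested. The background of calls was high too: 61.4% of all genes passed, 25.8% higher and 35.6% lower. The median change of the 10 members was −1.04 on the log2 scale, and that of all genes was −0.28.

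Ing3 encodes a PHD-finger subunit that binds histone H3 methylated at lysine 4. It stood at 13.3, 14.3 and 8.82 TPM in CCs. At 6 hpa its lowest, median and highest values were 75.0, 83.8 and 132 TPM, a log2 difference of 2.81 ± 0.37 (SE, n = 3 and 6, limma adjusted p = 2.5e-09). Every 6 hpa library was thus above every CC library. Epc1, one of a pair of enhancer of polycomb proteins that hold the catalytic module together, went from 5.30, 8.10 and 7.13 TPM in CCs to 13.5, 22.4 and 47.3 TPM (1.69 ± 0.51, limma adjusted p = 0.0035). Ep400 went from 4.45, 5.71 and 6.28 to 11.2, 13.2 and 15.2 TPM (1.13 ± 0.40, limma adjusted p = 0.0119). The Ep400 call was lost without CC replicate 1 (1.01, limma adjusted p = 0.0591) and with the length trend removed (0.74, limma adjusted p = 0.0981).

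Among the 5 that fell, Dmap1 had the largest difference. DMAP1 is shared with the DNMT1 and SRCAP complexes. Its level was 26.2, 18.5 and 21.7 TPM in CCs and 0.626, 1.98 and 2.94 TPM (lowest, median and highest) at 6 hpa, a log2 difference of −3.08 ± 0.54 (limma adjusted p = 1.72e-06). Meaf6, a small subunit shared by several MYST acetyltransferases, had 55.3, 53 and 42.0 TPM in CCs and 5.18, 8.32 and 11.9 TPM at 6 hpa (−2.48 ± 0.51, limma adjusted p = 2.82e-05). Morf4l1, whose chromodomain binds H3 methylated at lysine 36, was the most abundant member in CCs and, in SCNT embryos, from L2C onwards. It fell from 295, 380 and 285 TPM to 60.4, 69.7 and 82.2 TPM (−2.16 ± 0.25, limma adjusted p = 9.12e-11). Of its annotated exon bases 15.4% are shared with Gm26882 on the opposite strand, and the assay is not stated to keep strand, so reads of the 2 genes cannot be told apart there. Trrap had 5.86, 5.49 and 3.98 TPM in CCs and 0.260, 0.395 and 0.783 TPM at 6 hpa (−2.08 ± 0.40, limma adjusted p = 1.15e-05).

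Kat5, the catalytic subunit, had 5.90, 8.35 and 10.49 TPM in CCs, and its lowest, median and highest values at 6 hpa were 0.105, 1.40 and 2.70 TPM (−2.06 ± 0.84, limma adjusted p = 0.0301). The groups did not overlap, but the call was lost when CC replicate 2 or 3 or 6 hpa replicate 1 or 3 was left out (limma adjusted p = 0.0510 to 0.0942). It was also lost with a pseudocount of 0.1, without a filter, with TPM rescaled over reference genes and with the length trend removed (limma adjusted p = 0.0505 to 0.0674). Exon bases shared with Rnaseh2c on the opposite strand made up 12.1% of those of Kat5. Brd8, a bromodomain subunit, had 15.1, 11.4 and 12.8 TPM in CCs and 9.53, 14.5 and 17.3 TPM at 6 hpa (0.08, limma adjusted p = 0.876). Epc2 differed by −0.03 (limma adjusted p = 0.981). The sum of 7 oocyte markers was 4192 to 8142 TPM at 6 hpa and 0.0158 to 2.25 TPM in CCs, and the sum of 8 cumulus markers was 1234 to 1922 TPM in CCs and at most 66.2 TPM in SCNT libraries. The cytoplasm of the oocyte and the transferred nucleus cannot be told apart as the source of a transcript at 6 hpa.

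**Figure D1:**
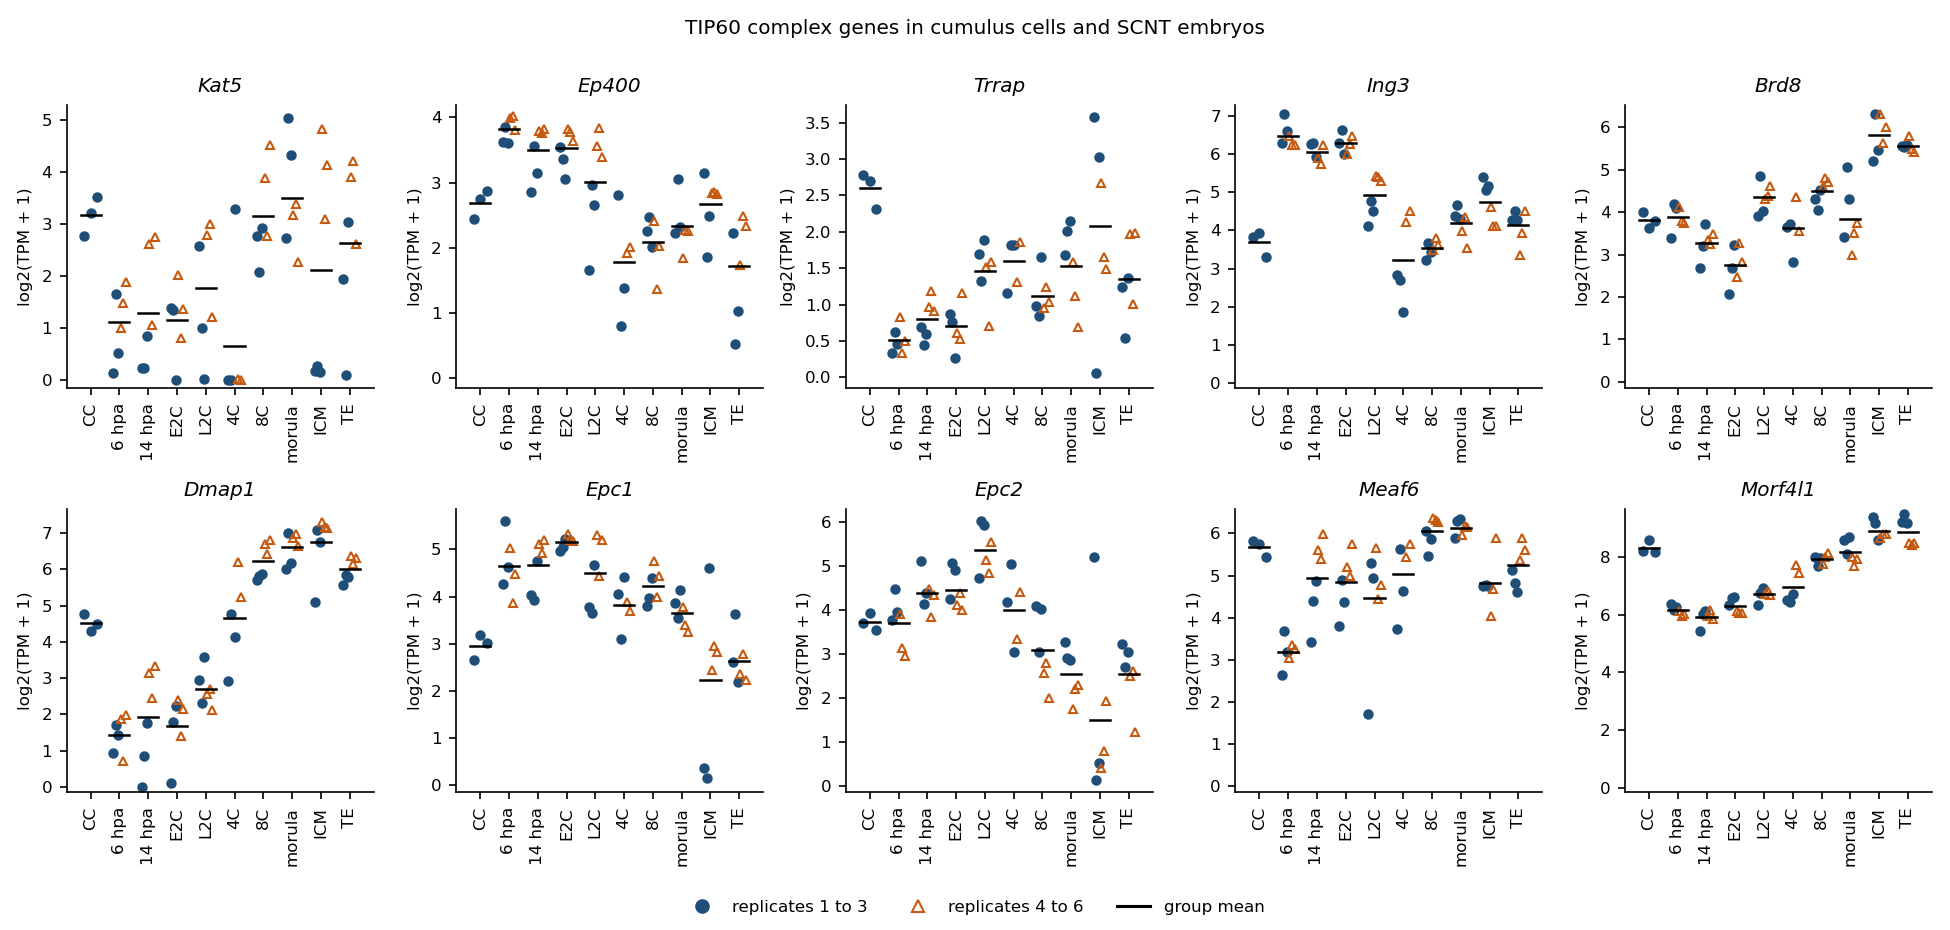
Each panel plots log2(TPM + 1) of 1 member (y axis) in CCs and the 9 SCNT groups (x axis), with 1 point per library, filled circles for replicates 1 to 3, open triangles for replicates 4 to 6 and a line at the group mean. Dmap1, Morf4l1 and Meaf6 were low at 6 hpa and high at 8C, Ing3 and Ep400 ran the other way, and Kat5 in the ICM lay near 0 in replicates 1 to 3 and between 7.63 and 27.7 TPM in replicates 4 to 6.

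Across the SCNT stages 6 of the members differed between 6 hpa and 8C. Dmap1, Meaf6, Morf4l1 and Kat5 were higher at 8C than at 6 hpa, and Ing3 and Ep400 were lower. In that comparison, chosen after the values were seen, these 6 of 10 members passed the threshold, 4 higher and 2 lower, with no overlap between the groups. Of all 11867 genes tested 68.2% passed (36.5% higher and 31.7% lower), and the groups did not overlap in 61.6%. Brd8, Trrap, Epc1 and Epc2 did not pass. The log2 difference was 4.79 ± 0.45 for Dmap1 (limma adjusted p = 8.61e-14), 2.87 ± 0.42 for Meaf6 (limma adjusted p = 3.52e-08), 2.05 ± 0.70 for Kat5 (limma adjusted p = 0.0081) and 1.77 ± 0.21 for Morf4l1 (limma adjusted p = 1.45e-10). It was −2.95 ± 0.31 for Ing3 (limma adjusted p = 2.56e-12) and −1.72 ± 0.33 for Ep400 (limma adjusted p = 8.61e-06). The Ep400 call was lost when the trend of the fold change with transcript length was removed (−0.64, limma adjusted p = 0.0784), and the longest Ep400 transcript has 10685 bases. The Kat5 call was lost within replicates 1 to 3 (1.82, limma adjusted p = 0.0592).

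Dmap1 had the widest range, with a mean of 1.84 TPM at 6 hpa and 119 TPM in the ICM, a ratio of 64.7. The ratio of the highest to the lowest stage mean was 10.4 for Trrap, 9.61 for Brd8, 9.55 for Kat5 and between 4.88 (Ep400) and 8.48 (Ing3) for the other 6. In SCNT libraries the scaffold and the enzyme were the members most often below 1 TPM. Trrap was below 1 TPM in 23 of 53 libraries and Kat5 in 16, with Kat5 listed at 0 in 3 of them. Dmap1 was below 1 TPM in 5 libraries, Epc2 in 4, Ep400 and Epc1 in 2 each, and Ing3, Brd8, Meaf6 and Morf4l1 in none.

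The stage medians show these courses. For Kat5 they were 1.40 TPM at 6 hpa, 0.940 TPM at 14 hpa, 1.59 TPM at E2C, 3.17 TPM at L2C, 0.00306 TPM at 4C, 6.28 TPM at 8C, 8.83 TPM in the morula, 3.92 TPM in the ICM and 6.2 TPM in the TE. The other medians are given in that same order. Those of the ATPase Ep400 were 13.2, 11.7, 11, 8.12, 2.81, 3.43, 3.81, 6.12 and 3.01 TPM. The scaffold Trrap had 0.395, 0.747, 0.611, 1.94, 2.52, 1.01, 2.09, 3.75 and 1.48 TPM. Ep400 was thus above Kat5 up to 4C, and below it at 8C and in the morula. The methyl-lysine reader Ing3 had 83.8, 68, 77.7, 32.4, 6.14, 10.8, 19.0, 28.1 and 18.3 TPM. For the acetyl-lysine reader Brd8 the medians were 14.5, 8.80, 5.74, 19.4, 11.4, 22.5, 11.4, 56.0 and 45.4 TPM. The chromodomain protein Morf4l1 had 69.7, 62.8, 74.0, 106, 103, 252, 261, 442 and 467 TPM. Ing3 had its highest medians in the first 3 of these groups, and Brd8 and Morf4l1 in the last 2. Dmap1 had medians of 1.98, 3.45, 2.95, 5.21, 26.2, 71.2, 107, 138 and 63.6 TPM. For Meaf6 they were 8.32, 34.7, 29.7, 27.9, 42.6, 71.1, 70.6, 25.9 and 37.1 TPM. Of the paralogs that bridge the catalytic module, Epc1 had 22.4, 27.6, 35.4, 22.6, 13.8, 17.5, 11.6, 5.24 and 4.62 TPM. Epc2 had 13.3, 19.4, 18.9, 39.9, 17.1, 6.54, 5.06, 0.584 and 5.31 TPM. Epc1 had its lowest median in the TE and Epc2 in the ICM. Neighbouring stages that are not named below as rising or falling did not pass the threshold. Some of them had an adjusted p under 0.05 and were short of 2-fold. Brd8 at 4C against L2C was such a case (−0.73, limma adjusted p = 0.0412). Morf4l1 was another, in the ICM (0.73, limma adjusted p = 0.00697) and in the TE (0.72, limma adjusted p = 0.00872) against the morula.

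From 6 hpa to 14 hpa, 1 of 10 passed the threshold, where 11.1% of all genes did (6.14% higher and 4.94% lower). That member was Meaf6, which had 9.62, 34.7 and 62.9 TPM (lowest, median and highest) at 14 hpa, with an overlap between the 2 groups (1.75 ± 0.42, limma adjusted p = 0.00221). The difference was 1.06 within replicates 1 to 3 and not past the threshold there (limma adjusted p = 0.447). Of all genes past the threshold 55.4% were higher, and 67.1% with TPM rescaled over reference genes. From 14 hpa to E2C no member passed limma's test and none had an unadjusted p under 0.05, where 5.83% of all genes passed and 17.9% had such a p. Over both steps together, Brd8 went from 9.53, 14.5 and 17.3 TPM (lowest, median and highest) at 6 hpa to 3.17, 5.74 and 8.66 TPM at E2C, with no overlap. These 2 stages were not compared in a test.

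From E2C to L2C, the time of the major activation of the embryonic genome, Brd8 rose and Ing3 fell. These were 2 of 10 members, where 34.9% of all genes passed (23.7% higher and 11.2% lower). Brd8 had 3.17, 5.74 and 8.66 TPM (lowest, median and highest) at E2C and 14.1, 19.4 and 27.6 TPM at L2C (1.59 ± 0.28, limma adjusted p = 8e-06). Ing3 had 63.5, 77.7 and 98.5 TPM at E2C and 16.3, 32.4 and 42.4 TPM at L2C (−1.37 ± 0.31, limma adjusted p = 0.000289). Neither gene had overlapping groups. Within replicates 4 to 6 the Ing3 difference was −0.88 (limma adjusted p = 0.0066), short of 2-fold. Dmap1 differed by 1.03 (limma adjusted p = 0.0632), Epc2 by 0.91 (limma adjusted p = 0.143) and Trrap by 0.75 (limma adjusted p = 0.0704). Kat5 ranged from 0 to 3.07 TPM at E2C and from 0.0161 to 7.06 TPM at L2C, so the spread within each stage was wider than the gap between their medians of 1.59 and 3.17 TPM. With TPM rescaled over reference genes, Dmap1, Epc2 and Trrap also passed (1.48, 1.26 and 1.18), while quantile normalization added Ep400 and Epc1 as lower (−1.22 and −1.12). Of all genes past the threshold, 67.9% were higher at L2C, with 79.0% under the rescaling and 48.1% under quantile normalization.

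At 4C, Dmap1 rose from L2C, and Ing3, Epc2 and Ep400 fell. They were 4 of 10 members, where 38.4% of all genes passed (11.8% higher and 26.6% lower), and the median of the members was −0.71 beside −0.33 for all genes. Of all genes past the threshold 30.8% were higher, and 51.8% under quantile normalization. The 5 values of Dmap1 at 4C were 6.57, 26.2, 16.7, 72.3 and 36.5 TPM, and its range at L2C was 3.36 to 10.9 TPM (1.95 ± 0.47, limma adjusted p = 0.000623). Ing3 had 6.14, 5.49, 2.64, 17.8 and 21.7 TPM at 4C (−1.70 ± 0.32, limma adjusted p = 2.01e-05), and the last 2 of these lay inside its L2C range. Ep400 had 6.05, 0.740, 1.62, 2.81 and 3.05 TPM at 4C and 2.16, 8.12 and 13.3 TPM (lowest, median and highest) at L2C (−1.22 ± 0.35, limma adjusted p = 0.0035). Groups overlapped in all 4 genes. The Ep400 change fell short of 2-fold without 4C replicate 2 (−0.97, limma adjusted p = 0.0254), and it was −0.38 with the length trend removed (limma adjusted p = 0.397). Epc2 had 17.1, 31.8, 7.21, 9.15 and 20.1 TPM at 4C and 25.3 to 63.3 TPM at L2C (−1.36 ± 0.52, limma adjusted p = 0.0299). Its call was lost without L2C replicate 2 or 3 or 4C replicate 3 or 4 (limma adjusted p = 0.0622 to 0.10), with a pseudocount of 0.1 (limma adjusted p = 0.0875) and with the length trend removed (−0.75, limma adjusted p = 0.264). The Dmap1 difference was 1.00 within replicates 1 to 3 (limma adjusted p = 0.247). Within replicates 4 to 6 Kat5 (−2.32, limma adjusted p = 0.0044) and Epc1 (−1.20, limma adjusted p = 0.00306) passed too, as lower at 4C.

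From 4C to 8C, Kat5 and Dmap1 rose. These were 2 of 10 members, where 19.8% of all genes passed (11.5% higher and 8.23% lower), and the median of the members was 0.64 beside 0.04 for all genes. Kat5 was listed at 0, 0, 8.82, 0.0263 and 0.00306 TPM in the 5 4C libraries, and had 3.23, 6.28 and 22.2 TPM (lowest, median and highest) at 8C (2.5 ± 0.73, limma adjusted p = 0.0105). So 4 of the 4C libraries were below every 8C library, and replicate 3 lay inside the 8C range. Within replicates 1 to 3 the Kat5 difference was 1.5 (limma adjusted p = 0.238). Dmap1 had 50.9, 71.2 and 112 TPM at 8C (1.57 ± 0.47, limma adjusted p = 0.0122), and this call was lost without 4C replicate 1 (1.14, limma adjusted p = 0.0969) and with TPM rescaled over reference genes (1.12, limma adjusted p = 0.0937). Morf4l1 differed by 0.96 (limma adjusted p = 0.00108) and Brd8 by 0.88 (limma adjusted p = 0.0261), both short of 2-fold. The share of higher genes among all calls was 58.4%, and 31.8% under that rescaling. From 8C to the morula no member passed limma's test, where 12.2% of all genes did. The members with an unadjusted p under 0.05 were 2, where 26.4% of all genes had one, Brd8 (−0.66) and Ing3 (0.65). Of all calls there 71.5% were higher, and 48.2% under quantile normalization.

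In the blastocyst Brd8 rose in both lineages. In the ICM against the morula 3 of 10 members passed, 1 higher and 2 lower, where 24.0% of all genes did (8.96% higher and 15% lower). In the TE against the morula 1 of 10 passed, where 21.8% of all genes did (11% higher and 10.8% lower). Both comparisons share the morula libraries. Of all calls in the ICM 37.4% were higher, and 47.7% under quantile normalization. Brd8 had 6.88, 11.4 and 32.6 TPM (lowest, median and highest) in the morula, 35.7, 56.0 and 78.7 TPM in the ICM and 41.9, 45.4 and 54.3 TPM in the TE. Neither lineage overlapped with the morula (ICM 1.99 ± 0.28, limma adjusted p = 2.52e-07, and TE 1.72 ± 0.28, limma adjusted p = 4.21e-06). With ICM replicates 4 to 6 alone the ICM difference was 2.15 (limma adjusted p = 3.32e-06). Within replicates 1 to 3 the TE difference was 1.29 (limma adjusted p = 0.0551).

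Epc1 and Meaf6 fell in the ICM when all 6 libraries entered. Epc1 had 0.280, 0.116, 23.2, 4.43, 6.78 and 6.06 TPM in ICM replicates 1 to 6 and 8.50 to 16.6 TPM in the morula (−1.44 ± 0.42, limma adjusted p = 0.00864). The call was lost without ICM replicate 1 (−1.06, limma adjusted p = 0.0523) or replicate 2 (−1.02, limma adjusted p = 0.0564). With ICM replicates 4 to 6 alone against all morula libraries the difference was −0.92 (limma adjusted p = 0.0694). Within replicates 4 to 6 of both groups it was −0.73 (limma adjusted p = 0.0527). Meaf6 went from 58.1, 70.6 and 79.5 TPM in the morula to 15.4, 25.9 and 58.8 TPM in the ICM (−1.32 ± 0.42, limma adjusted p = 0.0154). With ICM replicates 4 to 6 alone against all morula libraries the value was −1.26 (limma adjusted p = 0.0839). The Meaf6 call was also lost within replicates 1 to 3 of both groups (−1.41, limma adjusted p = 0.104) and kept within replicates 4 to 6 of both. Epc2 had 35.7, 0.0978, 0.438, 0.320, 0.729 and 2.80 TPM in ICM replicates 1 to 6, so that 5 libraries were low and replicate 1 was the highest of all blastocyst libraries. The Epc2 difference from the morula was −1.79 without ICM replicate 1 (limma adjusted p = 0.000486). It was −1.5 with ICM replicates 4 to 6 alone against all morula libraries (limma adjusted p = 0.013).

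Kat5 did not separate the 2 lineages of the SCNT blastocyst. Its 6 ICM values were 0.133, 0.218, 0.122, 27.7, 7.63 and 16.7 TPM, and its 6 TE values were 2.88, 0.0698, 7.23, 14.1, 17.6 and 5.17 TPM. The 3 ICM libraries with fewer genes detected were the 3 near 0. The difference between ICM and TE was −0.52 with all 6 ICM libraries (limma adjusted p = 0.82). It was 1.39 with ICM replicates 4 to 6 alone against all 6 TE libraries (limma adjusted p = 0.326). Its sign thus turned with those 3 libraries, and neither value passed the test. Within replicates 4 to 6 of both lineages, where the replicate numbers were balanced, Kat5 did not pass the threshold either. Against the morula, Kat5 in the ICM differed by −1.38 (limma adjusted p = 0.144), by −3.83 within replicates 1 to 3 (limma adjusted p = 0.00108) and by 0.53 with ICM replicates 4 to 6 alone (limma adjusted p = 0.711). The part of RNA quality or sampling in this was not tested.

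**Figure D2:**
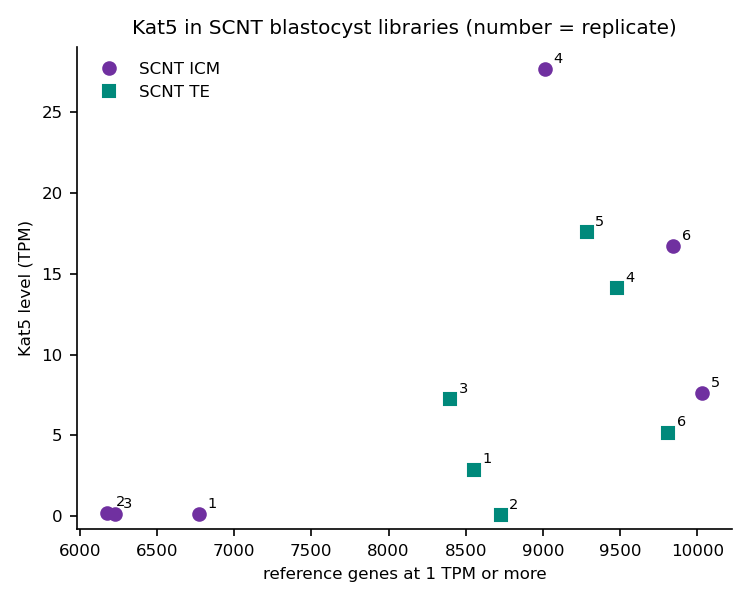
Kat5 level in TPM (y axis) is plotted against the number of reference genes at 1 TPM or more (x axis) for the 12 SCNT blastocyst libraries, with circles for ICM, squares for TE and the replicate number beside each point. ICM replicates 1 to 3, with 6177 to 6771 genes, had 0.122 to 0.218 TPM of Kat5, and ICM replicates 4 to 6, with 9011 to 10032 genes, had 7.63 to 27.7 TPM.

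No member passed limma's test between the ICM and the TE, where 5.34% of all genes did, and 3 members had an unadjusted p under 0.05, as 18.2% of all genes did. These were Ep400 (0.94, limma adjusted p = 0.0833), Trrap (0.73, limma adjusted p = 0.226) and Epc2 (−1.05, limma adjusted p = 0.237). Trrap had 10.9, 0.0377, 7.16, 5.34, 2.16 and 1.81 TPM in ICM replicates 1 to 6 and 0.454 to 2.95 TPM in the TE, and it passed without ICM replicate 2 (1.13, limma adjusted p = 0.0191). Epc2 passed without ICM replicate 1 (−1.79, limma adjusted p = 0.00263). It also passed with ICM replicates 4 to 6 alone against all TE libraries (−1.51, limma adjusted p = 0.0407). Within replicates 4 to 6 of both lineages no member was past the threshold, Epc2 included. Ep400 passed under quantile normalization (1.02, limma adjusted p = 0.0348) and with the length trend removed (1.11, limma adjusted p = 0.0313). Between ICM and TE 27.6% of all calls were higher in the ICM, and 46.5% under quantile normalization.

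Against the donor CCs, the SCNT ICM had more Dmap1, Brd8 and Ing3 and less Epc2. These were 4 of 10 members, where 37.9% of all genes passed (16.9% higher and 21.0% lower). Dmap1 had 33.3, 138 and 158 TPM (lowest, median and highest) in the ICM, above all 3 CC libraries (2.24 ± 0.54, limma adjusted p = 0.000576). Brd8 differed by 2.01 ± 0.33 (limma adjusted p = 1.81e-06) and Epc2 by −2.23 ± 0.59 (limma adjusted p = 0.00192), and with ICM replicates 4 to 6 alone the values were 2.69 for Dmap1, 2.18 for Brd8 and −2.68 for Epc2, all past the threshold. Ing3 differed by 1.06 ± 0.37 (limma adjusted p = 0.0169), with no overlap of the groups. It fell below the threshold without CC replicate 3 (0.87, limma adjusted p = 0.119), without any 1 of ICM replicates 1, 2 and 3 (0.93 to 1.00) and with ICM replicates 4 to 6 alone (0.60, limma adjusted p = 0.253).

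**Figure D3:**
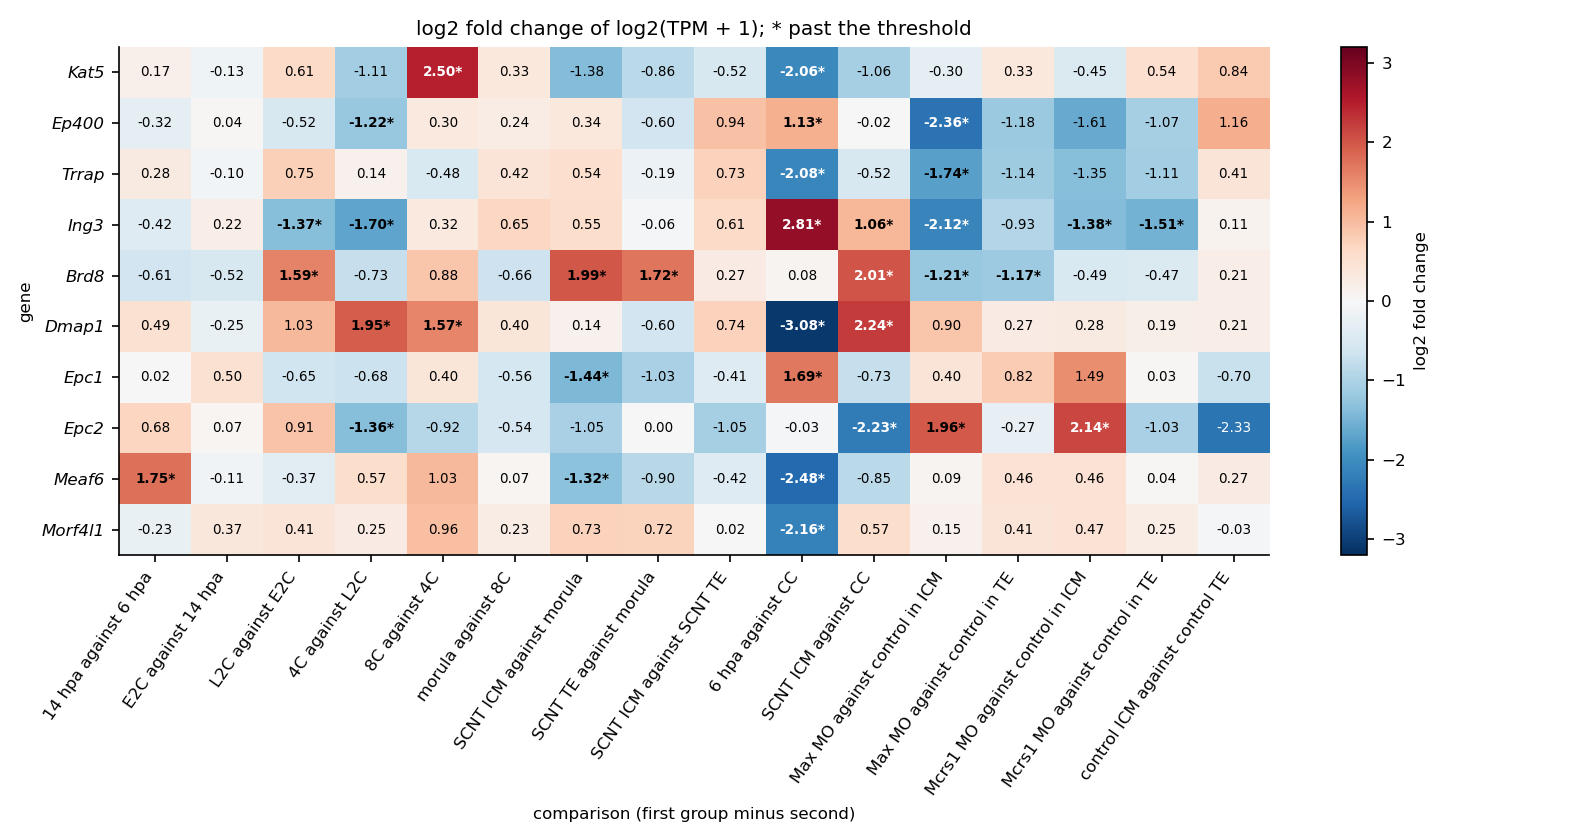
The grid gives the log2 fold change of log2(TPM + 1), by number and colour, for each member (rows) in the 16 planned comparisons of groups (columns, first group minus second), and an asterisk marks those past the threshold. The column with most asterisks is 6 hpa against CC, with 8 of 10 members, and the next is Max MO in the ICM, with 5.

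In the ICM of fertilized blastocysts, Max MO went with lower Ing3, Ep400, Trrap and Brd8 and higher Epc2. The targeted transcript itself was at 38.0 and 8.42 TPM in the control ICM and 6.82 and 0.443 TPM after Max MO (−2.51, limma adjusted p = 0.0397). In the TE it was at 34.5 and 28.5 TPM in controls and 16.3 and 8.68 TPM after Max MO (−1.32, limma adjusted p = 0.39). A morpholino acts on translation or splicing, so the level of the transcript is a limited check. In the ICM 5 of 10 members passed the threshold, 1 higher and 4 lower, where 23.7% of all 11219 genes did (8.65% higher and 15.1% lower). The median of the members was −0.11 beside −0.21 for all genes. Of all calls 36.5% were higher, and 52.6% under quantile normalization, under which 4 of the 5 members passed and Trrap did not (−1.23, limma adjusted p = 0.144).

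Ing3 had 45.4 and 42.3 TPM in the control ICM and 10.0 and 8.66 TPM after Max MO (−2.12 ± 0.34, limma adjusted p = 0.00213). Ep400 had 18.6 and 50.4 TPM in controls and 5.70 and 4.72 TPM after Max MO (−2.36 ± 0.52, limma adjusted p = 0.0089). Brd8 had 126 TPM in both control libraries and 60.8 and 47.7 TPM after Max MO (−1.21 ± 0.22, limma adjusted p = 0.00336). For all 3 genes both Max MO libraries were below both controls. Trrap had 8.18 and 12.1 TPM in controls and 2.93 and 1.72 TPM after Max MO (−1.74 ± 0.55, limma adjusted p = 0.0376). Epc2 was the one that rose, from 1.32 and 0.0767 TPM to 5.71 and 4.59 TPM (1.96 ± 0.56, limma adjusted p = 0.0264). These groups did not overlap either. With 2 libraries a group such separation can arise easily. Its share over all genes was counted only for 6 hpa against CC and 8C against 6 hpa, so here it is a description only. Without control replicate 2, or without Max MO replicate 1 or 2, the calls on Trrap (limma adjusted p = 0.0734 to 0.164) and Epc2 (limma adjusted p = 0.0775 to 0.112) were lost. With the length trend removed, Ing3 (−1.59, limma adjusted p = 0.0136) and Epc2 (2.73, limma adjusted p = 0.0107) passed, while Ep400 (−1.09, limma adjusted p = 0.203), Brd8 (−0.49, limma adjusted p = 0.146) and Trrap (−0.40, limma adjusted p = 0.667) did not. Trrap and Ep400 have the longest transcripts among the members, with 12479 and 10685 bases. With the 4 libraries of this comparison fitted alone, the 5 differences were the same and none passed (limma adjusted p = 0.0853 to 0.231), where 1 of 11447 genes did.

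Kat5, the member with the E-box in its upstream window, had 29.3 and 34.6 TPM in the control ICM and 30.9 and 21.2 TPM after Max MO, with overlapping groups (−0.30, limma adjusted p = 0.53). In the TE it had 16.2 and 18.5 TPM in controls and 18.3 and 26.4 TPM after Max MO (0.33, limma adjusted p = 0.637). Neither value passed the test. Dmap1 had 97.9 and 154 TPM in the control ICM and 250 and 211 TPM after Max MO (0.90, limma adjusted p = 0.0302), short of 2-fold, and it passed without control replicate 2 (1.22, limma adjusted p = 0.00558).

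In the TE after Max MO only Brd8 passed, 1 of 10 members, where 2.5% of all genes did (1.04% higher and 1.45% lower). Brd8 had 110 and 108 TPM in controls and 45.4 and 50.5 TPM after Max MO (−1.17 ± 0.22, limma adjusted p = 0.0288). Leaving out any 1 of the 4 libraries ended the call, with limma adjusted p = 0.0811 to 0.179 and a difference of −1.09 to −1.24. Removing the length trend did too (−0.70, limma adjusted p = 0.124). Ing3 had 36.5 and 45.2 TPM in controls and 20.3 and 21.6 TPM after Max MO (−0.93, limma adjusted p = 0.154). Ep400 had 13.4 and 12.9 TPM in controls and 6.40 and 4.29 TPM after Max MO (−1.18, limma adjusted p = 0.236). Neither of these 2 had overlapping groups, and the share of all genes without overlap was not counted here. In the TE 41.8% of all calls were higher, with 52.6% under quantile normalization and 73.5% with the length trend removed.

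**Figure D4:**
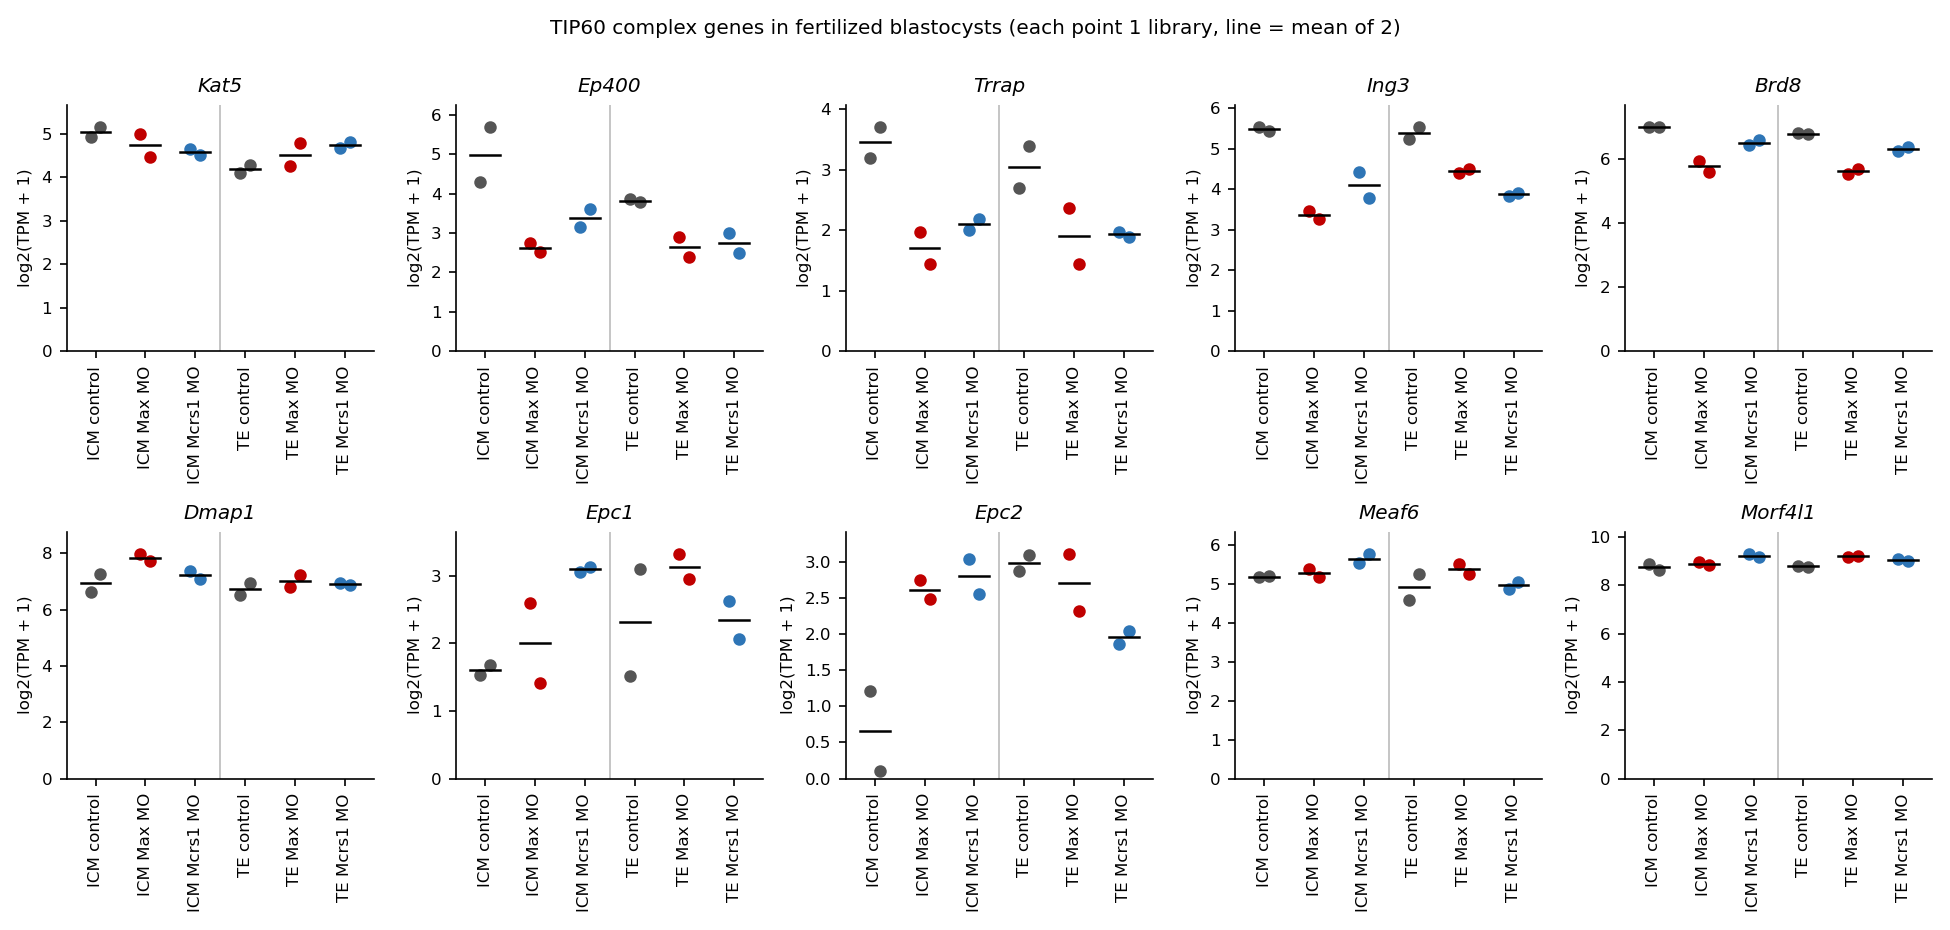
Each panel plots log2(TPM + 1) of 1 member (y axis) in the ICM and TE of control, Max MO and Mcrs1 MO blastocysts (x axis), with 1 point per library and a line at the mean of 2. Ing3, Ep400, Trrap and Brd8 were each below both controls of the same tissue in all 8 morpholino libraries, while Kat5 lay between 16.2 and 34.6 TPM throughout.

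After Mcrs1 MO, Ing3 was the only member past the threshold in both tissues, as lower. Ep400 (−1.61 in the ICM and −1.07 in the TE), Trrap (−1.35 and −1.11) and Brd8 (−0.49 and −0.47) were also lower, without passing (limma adjusted p = 0.0673 to 0.237). Dmap1, Epc1, Meaf6 and Morf4l1 were higher in both tissues, without passing. Mcrs1 itself had 253 and 310 TPM in the control ICM and 86.8 and 73.4 TPM after Mcrs1 MO (−1.80, limma adjusted p = 0.00333), and in the TE 219 and 294 TPM against 41.1 and 45.5 TPM (−2.53, limma adjusted p = 0.000868). In the ICM 2 of 10 members passed, where 10.1% of all genes did (4.88% higher and 5.21% lower). In the TE 1 of 10 passed, where 5.08% of all genes did (1.77% higher and 3.31% lower). An unadjusted p under 0.05 in limma was found for 7 members in the ICM, where 29.3% of all genes had one. In the TE it was found for 1 member, where 24.9% of all genes had one. Ing3 had 20.5 and 12.7 TPM in the ICM after Mcrs1 MO (−1.38 ± 0.34, limma adjusted p = 0.0283) and 13.4 and 14.0 TPM in the TE (−1.51 ± 0.34, limma adjusted p = 0.0298). In the ICM the Ing3 call was lost without Mcrs1 MO replicate 1 or 2 (limma adjusted p = 0.0762 and 0.145), and in the TE without any 1 of the 4 libraries (limma adjusted p = 0.125 to 0.171). With the length trend removed it was lost in the ICM (−1.19, limma adjusted p = 0.0602) and in the TE (−1.08, limma adjusted p = 0.107). It was also lost in the ICM with the groups alone (limma adjusted p = 0.249) and in the TE under quantile normalization (−1.16, limma adjusted p = 0.0853). Epc2 rose in the ICM to 7.25 and 4.90 TPM (2.14 ± 0.56, limma adjusted p = 0.0361), a call lost without control replicate 2 or Mcrs1 MO replicate 1 or 2 (limma adjusted p = 0.0901 to 0.183). In the TE Epc2 had 6.36 and 7.54 TPM in controls and 2.65 and 3.14 TPM after Mcrs1 MO (−1.03, limma adjusted p = 0.288). In the TE 34.9% of all calls were higher, with 52.6% under quantile normalization and 67.3% with the length trend removed. The Mcrs1 MO and Max MO comparisons use the same control libraries.

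The difference between the tissues was tested directly. For no gene did the response to Max MO or to Mcrs1 MO differ between ICM and TE past the threshold (0% of 11219 genes in both), with 1473 and 972 genes at an unadjusted p under 0.05 in limma, of which 2 and 1 were members. For Epc2 the Mcrs1 MO response was 3.17 ± 0.80 higher in the ICM than in the TE (limma adjusted p = 0.411). It passed without control ICM replicate 1 (3.72, limma adjusted p = 0.015), the ICM library with a TE-marker sum of 17188. Between the control ICM and the control TE no member passed, where 2.92% of all genes did, and 3 members had an unadjusted p under 0.05, as 22% of all genes did. Without that library Epc2 (−2.88, limma adjusted p = 0.00633) and Ep400 (1.86, limma adjusted p = 0.0238) passed there, and Ep400 passed after Mcrs1 MO in the ICM (−2.31, limma adjusted p = 0.00878). The calls of Ing3, Ep400, Brd8, Trrap and Epc2 after Max MO in the ICM were also made without it. The part of TE cells in the other values was not tested.

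The other 9 subunits of the complex, all in the tables, are shared more widely with other machines. At 8C against 6 hpa 4 of the 9 were higher and 3 lower, where 68.2% of all genes passed (36.5% higher and 31.7% lower). Ruvbl2, an AAA ATPase that TIP60 shares with INO80 and SRCAP, had 4.83, 7.43 and 9.80 TPM (lowest, median and highest) at 6 hpa and 241, 429 and 539 TPM at 8C, a log2 difference of 5.56. Its partner Ruvbl1 differed by 2.93, Actl6a by 1.64 and Actb by 3.07. On the other side, Mbtd1, a reader of methylated histone H4, had 136, 161 and 186 TPM at 6 hpa and 7.52, 13.1 and 19.5 TPM at 8C (−3.55). Morf4l2 and Yeats4 were lower by −1.72 and −1.70. In the ICM after Max MO 1 of the 9 passed, Yeats4 (1.17), and none was lower, where 23.7% of all genes passed (8.65% higher and 15.1% lower).

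**Figure D5:**
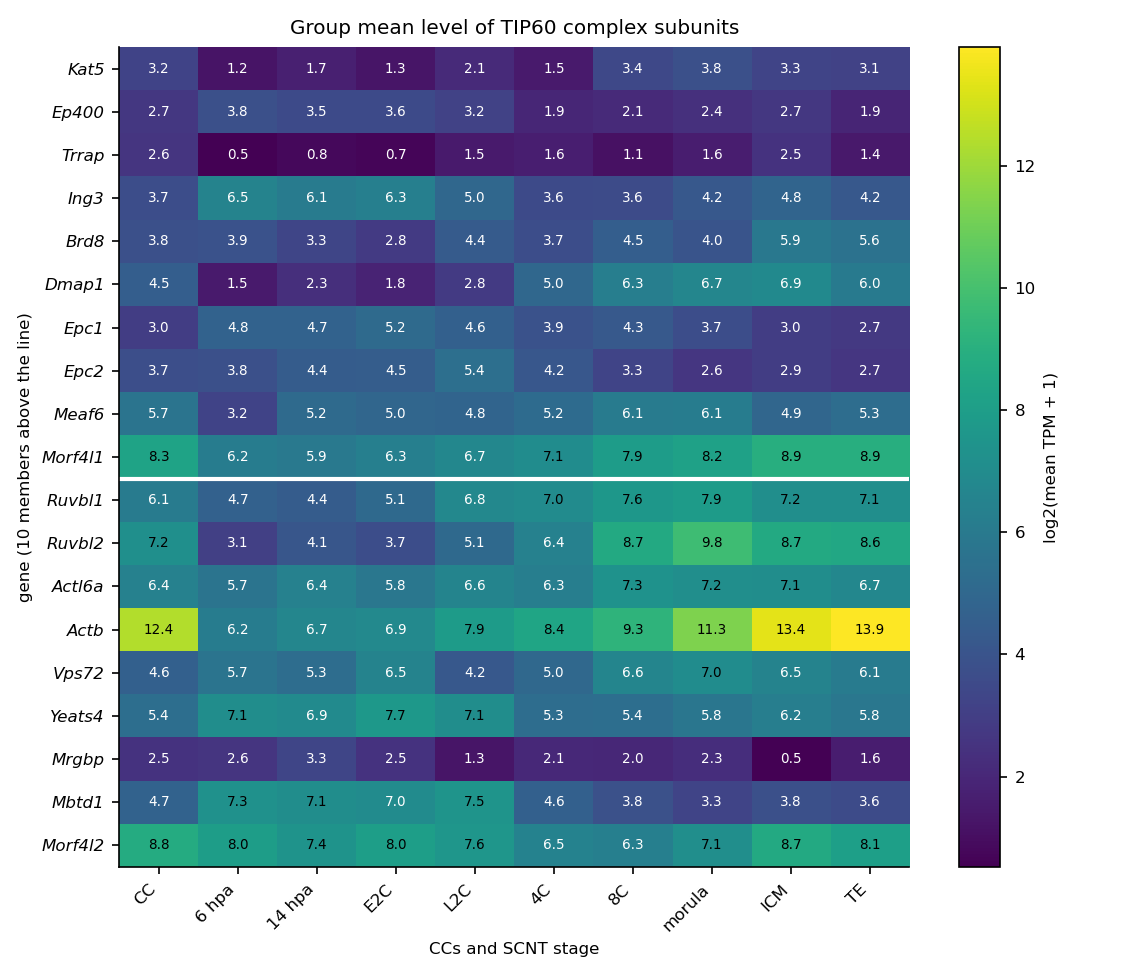
The grid gives log2(mean TPM + 1), by number and colour, of the 10 members (above the line) and 9 other subunits (below it) in CCs and the 9 SCNT groups (columns). Ruvbl2 went from 3.1 at 6 hpa to 8.7 at 8C on this scale and Mbtd1 from 7.3 to 3.8.

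Related complexes gave the following counts, all from the main fit. In the ICM after Max MO, 1689 of all genes were lower in that fit and 574 with the length trend removed. The counts of related complexes under that alternative are not given here. Of 11 other MYST acetyltransferases and partners tested, 6 were lower and none higher in the ICM after Max MO, where 15.1% of all genes were lower and 8.65% higher. Among them were Jade3 (−2.34), Kat6b (−1.99) and Brd1 (−1.95). Of 14 subunits of SAGA tested, which shares TRRAP with TIP60, 4 were lower and none higher in that comparison, beside the same 15.1% and 8.65% of all genes, led by Taf5l (−1.86) and the deubiquitinase Usp22 (−1.85). After Mcrs1 MO, 2 of the 14 SAGA subunits were lower and none higher in the ICM, where 5.21% of all genes were lower. In the TE 2 of 14 were lower and none higher too, where 3.31% of all genes were lower. The SAGA acetyltransferase Kat2a was lower in both tissues (−1.18 in the ICM and −2.05 in the TE). The H2A.Z gene H2afz, whose product TIP60 loads, was higher at 8C than at 6 hpa by 4.49, where 36.5% of all genes were higher.

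Over the 9 SCNT stage means, Kat5 was most like Ubxn6 (Pearson r = 0.979), Mfap4 (0.975), Cfap43 (0.968), 1700042G15Rik (0.967) and Rffl (0.962) among 11857 genes. Among the members r with Kat5 was highest for Dmap1 (0.743), Morf4l1 (0.723) and Meaf6 (0.711) and lowest for Epc2 (−0.576). The pair of members most alike was Ep400 and Ing3 (0.957), followed by Dmap1 and Morf4l1 (0.937), and the pair least alike was Epc1 and Morf4l1 (−0.899). These are descriptions over 9 points that share their libraries.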

How the data were processed

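The authors sequenced polyadenylated RNA by Smart-seq2 (paired-end reads of 150 bases), used Cutadapt 1.16 for trimming, HISAT2 for alignment (build mm10) and StringTie for quantification. They deposited 1 table per library whose rows give each gene's coverage, FPKM and TPM. That deposited TPM column is a signal scaled so that the loci assembled in that library sum to 1000000, and the reference genes stand beside those loci, with 30.4% to 94.4% of that sum. TPM was summed per reference symbol, and the assembled loci were not compared. Coverage and FPKM served only for depth. The tables hold no counts, so no count test was run and no counting interval is given.

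Groups and replicate numbers came from the labels. The labels speak of 3 replicates per stage, while 6 were deposited for most. log2(TPM + 1) was fitted with limma 3.58.1 in R 4.3.3 (lmFit, then trended eBayes) for genes whose mean was at least 1 TPM over the libraries of the fit: 53 SCNT libraries (11867 genes), these with 3 CC libraries (12084 genes), or 12 morpholino libraries (11219 genes). The threshold was a Benjamini-Hochberg adjusted p under 0.05 and at least 2-fold. The code was tested on simulated data. Tables and plots used Python 3.11.15, numpy 2.4.6, pandas 2.3.3 and matplotlib 3.10.9. Mean values can be set by few libraries, since a low gene in 1 library can be a missed gene.

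All 10 members are named. Of each other list at most the 3 genes with the largest change past the threshold in a comparison are named, except the other TIP60 subunits, and so are the 5 genes most like Kat5 by stage mean, with Max and Mcrs1. The members and lists were chosen with earlier results of these data known. The comparison of 8C with 6 hpa and the use of ICM replicates 4 to 6 only were chosen after seeing the data. Alternatives were a pseudocount of 0.1, no filter, a filter at 5 TPM, TPM rescaled over reference genes, quantile normalization, removal of the trend with transcript length (lowess, span 0.3), the compared groups alone, replicates 1 to 3 or 4 to 6 alone, a replicate block, and leaving out each library. The pairing of equal replicate numbers was checked by the correlation of deviations from group means. With 3 or more pairs, every pair was above 0.1 for 14 hpa with 6 hpa (0.142 to 0.390) and ICM with TE (0.131 to 0.300) only.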

Additional observations from a re-analysis of the deposited data

Results flagged for a closer look

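In 90 sets of 4 to 10 libraries (each member in each SCNT group with 5 or 6 libraries), 6 had a library whose gap to the nearest other was above Dixon's 95% critical value. For values with a normal spread chance flags about 1 in 20 sets. The gaps were taken on TPM and not on its logarithm, so that rate need not hold here. Kat5 was at 8.82 TPM in 4C replicate 3, where the nearest library had 0.0263. Ep400 was at 7.27 TPM in morula replicate 2, where the nearest had 3.99. Epc1 was at 23.2 TPM in SCNT ICM replicate 3 (nearest 6.78) and at 11.3 TPM in SCNT TE replicate 2 (nearest 5.92). Epc2 was at 35.7 TPM in SCNT ICM replicate 1 (nearest 2.80). Meaf6 was at 58.8 TPM in SCNT ICM replicate 6 (nearest 26.5). All 6 were the highest library of their group, and 3 of them were in the SCNT ICM. The TPM scale widens gaps at the high end, so the side of the flags is not a result.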

How the results depend on the processing

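Of 40 calls on single members, none changed direction under any alternative run. With 1 library left out, 330 of 366 values stayed past the threshold, and under the other alternatives 340 of 389 did. The number of members past the threshold, beside the main number in brackets, moved by over 1.5 times in these cases. For 14 hpa against 6 hpa (1) it was 0 in replicates 1 to 3 and 2 in replicates 4 to 6. For L2C against E2C (2) it was 5 with rescaled TPM and 4 under quantile normalization, for 4C against L2C (4) it was 1 in replicates 1 to 3 (and 6 in replicates 4 to 6), and for 8C against 4C (2) it was 1 with a pseudocount of 0.1 or rescaled TPM and 4 with the length trend removed. For the morula against 8C (0) it was 1 in replicates 4 to 6. For TE against morula (1) it was 2 under quantile normalization, with the length trend removed, with the groups alone and in replicates 4 to 6. For ICM against TE (0) it was 1 under quantile normalization, with the length trend removed and with ICM replicates 4 to 6 only. For Max MO in the ICM (5) it was 3 without a filter or at 5 TPM, 2 with the length trend removed and 0 with the groups alone, and in the TE (1) it was 0 with the length trend removed. For Mcrs1 MO in the ICM (2) it was 1 without a filter, at 5 TPM or with the length trend removed and 0 with the groups alone, and in the TE (1) it was 0 under quantile normalization or with the length trend removed. In 6 hpa against CC (8) the lowest was 6, with the length trend removed, and ICM against morula (3) gave 2 to 4. At the filter of 5 TPM, Epc2 and Trrap were not tested in the morpholino fit, so the lower numbers there leave them out. The cause of the other changes was not tested, apart from the fewer libraries in the smaller fits.

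Leaving out 1 library gave 1 to 1 for 14 hpa against 6 hpa, 0 to 0 for E2C against 14 hpa, 2 to 3 for L2C against E2C, 3 to 4 for 4C against L2C, 1 to 4 for 8C against 4C, 0 to 0 for the morula against 8C, 2 to 4 for ICM against morula, 1 to 2 for TE against morula, 0 to 1 for ICM against TE, 7 to 8 for 6 hpa against CC, 3 to 4 for ICM against CC and 6 to 6 for 8C against 6 hpa. For Max MO it gave 3 to 5 in the ICM and 0 to 0 in the TE, for Mcrs1 MO 0 to 3 and 0 to 0, and for control ICM against TE 0 to 2, where the lone library was assumed to vary like the other groups. The difference of the responses gave 0 to 0 for Max MO and 0 to 1 for Mcrs1 MO. The Ing3 and Epc2 calls of Mcrs1 MO in the ICM were both lost without Mcrs1 MO replicate 1 or 2.

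With a replicate block the numbers were 1 for 14 hpa, 0 for E2C, 3 for L2C (adding Dmap1, adjusted p = 0.0159 in limma), 4 for 4C, 2 for 8C, 0 for the morula, 3 for ICM and 1 for TE against the morula, 0 for ICM against TE, 7 for 6 hpa against CC (losing Ep400), 5 for ICM against CC (adding Meaf6), 6 for 8C against 6 hpa, 5 and 1 for Max MO, 2 and 1 for Mcrs1 MO, and 0 for the control tissues and both response differences. It changed no member call in the pairings that passed the check (14 hpa with 6 hpa, ICM with TE). The other groups share only a number.

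Without counts, precision at low TPM is unknown, which bears on the calls that include libraries below 1 TPM.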
